A study of Ovis aries with 16 samples.

Results

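The carnitine shuttle carries fatty acyl groups into mitochondria for oxidation. The genes described here are 6 of 7 chosen for that pathway (CPT1B, CPT2, CRAT, CROT, SLC22A5 and SLC25A20), found by gene symbol in the annotation of the array. CPT1A, the isoform of liver and many other tissues, had no probe set with its symbol and was not analysed here. Together the 6 genes had 8 probe sets among 24016 tested.

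The samples were peripheral lung of lambs at 3 days of age, 8 with an aortopulmonary shunt and 8 controls. In the shunt lambs a graft 8.0 mm wide and 2 mm long joined the ascending aorta to the main pulmonary artery. It was placed in the fetus 9 ± 6 days before term, and the study uses it to model the raised lung blood flow of congenital heart disease. The controls had sham surgery, and lambs of both groups were born spontaneously. The labels give no breed, sex or litter and do not describe the lambs singly, so 1 array is counted as 1 lamb. Were 2 arrays from the same animal, the p-values would be too small.

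Long-chain acyl groups cannot cross the inner mitochondrial membrane as CoA esters. A carnitine palmitoyltransferase of the outer membrane moves them to carnitine, a carrier exchanges the acylcarnitine for free carnitine across the inner membrane, and a second palmitoyltransferase inside returns the acyl group to CoA. Carnitine acetyltransferase and octanoyltransferase do the same exchange for short and medium chains, which also lets cells export surplus acyl groups as acylcarnitines, and a sodium-dependent transporter of the plasma membrane takes up carnitine from blood. Carnitine handling is a known question in lambs with a shunt, and the comparison asked whether the RNA of these genes already differed at this age.

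All 8 probe sets had a lower mean in shunt than in control lung, by 0.03 to 0.15 on the log2 scale, and 0 of 8 passed the threshold of an adjusted p under 0.05 (limma, adjusted over all probe sets). Of all probe sets 0.0708% passed, and 55.1% had a difference below 0. Unadjusted, a p under 0.05 was reached by 2 of the 8, CRAT and the dimmer SLC25A20 probe set, both lower in shunt, and by 13.7% of all probe sets (7.32% lower and 6.42% higher). The median difference of the 8 was -0.11, and that of all probe sets was -0.01. The 8 values come from the same 16 lambs and 2 genes count for 2 probe sets each, so they are not 8 independent observations.

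**Figure D1:**
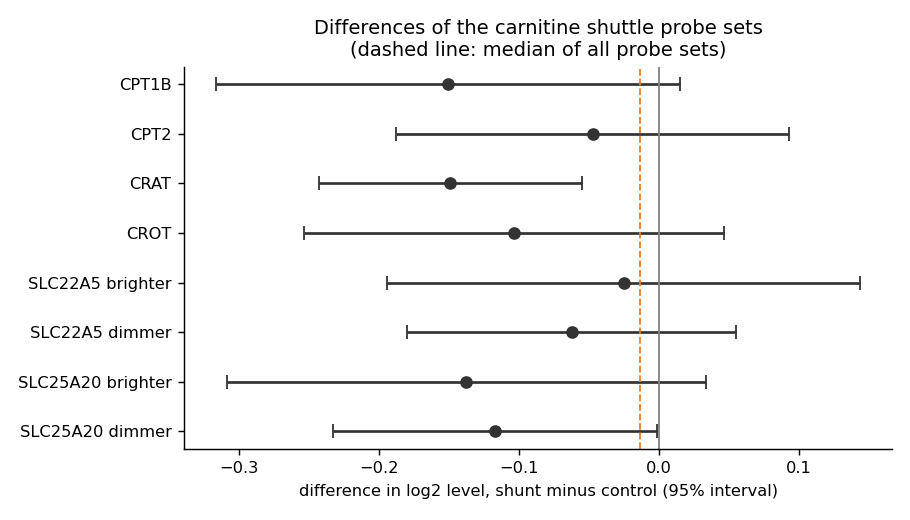
Difference in log2 level, shunt minus control, of each of the 8 carnitine shuttle probe sets (points) with its 95% interval from the limma fit (bars). All 8 points lie below 0, from -0.15 for CPT1B to -0.03 for the brighter SLC22A5 probe set, and the intervals of CRAT and of the dimmer SLC25A20 probe set stay below 0 before adjustment.

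CRAT, carnitine acetyltransferase, exchanges acetyl groups between CoA and carnitine in mitochondria and buffers the supply of free CoA. Its probe set ranged from 7.87 through a median of 8.01 to 8.08 in the 8 shunt lambs, and from 8.02 through a median of 8.14 to 8.22 in the 8 control lambs. The groups overlapped in a single pair, since control replicate 8, at 8.02, was the 1 control below the highest shunt lamb, replicate 3 at 8.08. At least 7 of 8 controls lay above the highest shunt lamb, with shunt lower, in 0.458% of all probe sets. The means were 7.98 ± 0.07 in shunt and 8.13 ± 0.06 in control (SD, n = 8 each).

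The CRAT difference was -0.15 ± 0.04 (SE), with a 95% interval from -0.24 to -0.06, or 9.81% less signal in shunt. It missed the threshold over all probe sets (limma adjusted p = 0.213, unadjusted p = 0.00361). All 8 shunt lambs were below the control mean, as in 8.14% of all probe sets. Exact permutation over the 12870 divisions of the lambs gave a two-sided p = 0.000311, not adjusted for the number of probe sets. Within each group CRAT varied little between lambs, and limma's moderated variance is wider than the spread of these 16 values. With each array centred on its median the difference was -0.13 (adjusted p = 0.247).

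CPT1B encodes the muscle isoform of the outer membrane palmitoyltransferase, the step inhibited by malonyl-CoA. Its probe set ranged from 6.65 through a median of 6.78 to 7.13 in shunt lambs and from 6.67 through a median of 6.96 to 7.22 in control lambs. The groups overlapped widely, with shunt replicate 1 at 7.13 standing among the highest controls and control replicate 8 at 6.67 among the lowest shunt lambs. The difference was -0.15 ± 0.08 (SE, 95% interval -0.32 to 0.01, limma adjusted p = 0.400), and 7 of 8 shunt lambs were below the control mean. This was the largest mean difference of the 8, and 8.19% of all probe sets had one at or below it.

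SLC25A20 encodes the carnitine-acylcarnitine translocase, the carrier of the inner membrane. Both of its probe sets have the same source sequence in the annotation, so they are not independent readings. The brighter one ranged from 9.86 through a median of 9.91 to 9.998 in shunt lambs and from 9.79 through a median of 10.07 to 10.53 in control lambs. Shunt lambs lay close together inside the range of the controls, with an SD of 0.05 in shunt against 0.24 in control, a difference in spread that was not tested. Control replicates 1 and 2, at 9.80 and 9.79, were below every shunt lamb, and control replicate 7, at 10.53, was far above the other controls.

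The brighter SLC25A20 probe set differed by -0.14 ± 0.08 (SE, 95% interval -0.31 to 0.03, limma adjusted p = 0.454), and 8 of 8 shunt lambs were below the control mean. Without control replicate 7 the difference was -0.07. The dimmer probe set ranged from 7.31 through a median of 7.50 to 7.55 in shunt lambs and from 7.38 through a median of 7.58 to 7.80 in control lambs. Here 7 of 8 controls lay above the highest shunt lamb, the exception being control replicate 1 at 7.38. Its difference was -0.12 ± 0.05 (SE, 95% interval -0.23 to -0.0019), with a limma adjusted p = 0.357, an unadjusted p = 0.0467 and an unadjusted exact permutation p = 0.0294. Without control replicate 7 it was -0.09.

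CPT2 encodes the palmitoyltransferase of the inner membrane, which returns acyl groups to CoA in the matrix. Its probe set ranged from 7.14 through a median of 7.25 to 7.40 in shunt lambs and from 7.10 through a median of 7.30 to 7.58 in control lambs. The shunt values lay inside the range of the controls, and the difference was -0.05 ± 0.07 (SE, 95% interval -0.19 to 0.09, limma adjusted p = 0.769). It was -0.0078 without control replicate 2, the highest at 7.58, and -0.08 without control replicate 3.

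CROT, carnitine octanoyltransferase, is a peroxisomal enzyme that passes shortened acyl chains to carnitine. Its probe set ranged from 8.91 through a median of 9.08 to 9.45 in shunt lambs and from 9.07 through a median of 9.24 to 9.30 in control lambs. Shunt lambs spread on both sides of the controls, with 3 below the lowest control and replicate 1, at 9.45, above all 8 controls. The difference was -0.10 ± 0.07 (SE, 95% interval -0.25 to 0.05, limma adjusted p = 0.517). Without shunt replicate 1 it was -0.15 (adjusted p = 0.261).

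SLC22A5 encodes OCTN2, the carnitine transporter of the plasma membrane. Its brighter probe set ranged from 9.10 through a median of 9.31 to 9.63 in shunt lambs and from 9.19 through a median of 9.32 to 9.63 in control lambs. Its dimmer probe set ranged from 7.15 through a median of 7.26 to 7.48 in shunt lambs and from 7.23 through a median of 7.37 to 7.47 in control lambs. The groups overlapped over most of their range with both probe sets.

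The differences of SLC22A5 were small, at -0.03 ± 0.08 (SE, 95% interval -0.19 to 0.14, limma adjusted p = 0.908) with the brighter and -0.06 ± 0.06 (95% interval -0.18 to 0.05, limma adjusted p = 0.629) with the dimmer probe set. The brighter one changed sign without control replicate 4 (0.01) or without shunt replicate 8 (0.00962). None of the 8 intervals reached below -0.32, or 0.803 of the control level, and each but those of CRAT and the dimmer SLC25A20 probe set included 0. An adjusted p above the threshold does not show that these genes were the same in both groups, since the largest unadjusted p that passed over all probe sets was 3.15e-05.

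**Figure D2:**
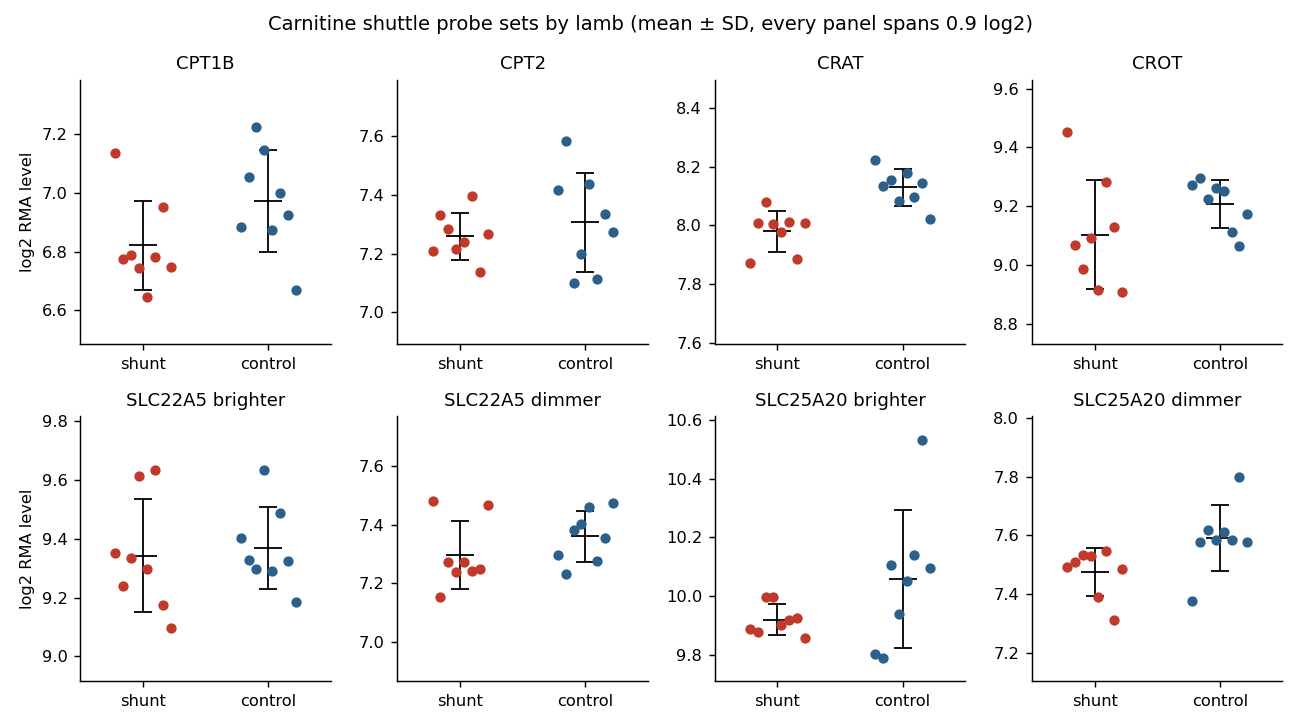
Log2 RMA level of each carnitine shuttle probe set in every lamb (points, shunt at left and control at right) with the group mean and SD (bars, n = 8 each). The y axes do not start at 0, and each spans the same width. CRAT shows the least overlap, while the brighter SLC25A20 probe set shows a narrow shunt group (SD 0.05) inside a wide control group (SD 0.24).

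Seen lamb by lamb, the shunt lambs had between 5 and 8 of the 8 probe sets below the control mean, with a median of 7, and the control lambs between 2 and 6, with a median of 4. Shunt replicates 3, 5 and 7 were below it with all 8. Shunt replicates 1 and 6 had the fewest, 5 each, and each of them was the highest shunt lamb with 3 probe sets. Shunt replicate 1 was highest for CPT1B, CROT and the dimmer SLC22A5 probe set, but lowest for CRAT. Averaged over the 8 probe sets, the distance from the control mean ran from -0.17 to -0.01 in shunt lambs, with 8 of 8 below 0, and from -0.07 to 0.06 in control lambs, with 3 of 8 below 0. Control lambs centre on 0 by construction, since the distance is taken from their own mean, and the shunt values restate the differences above. These counts and distances describe the members and carry no test.

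**Figure D3:**
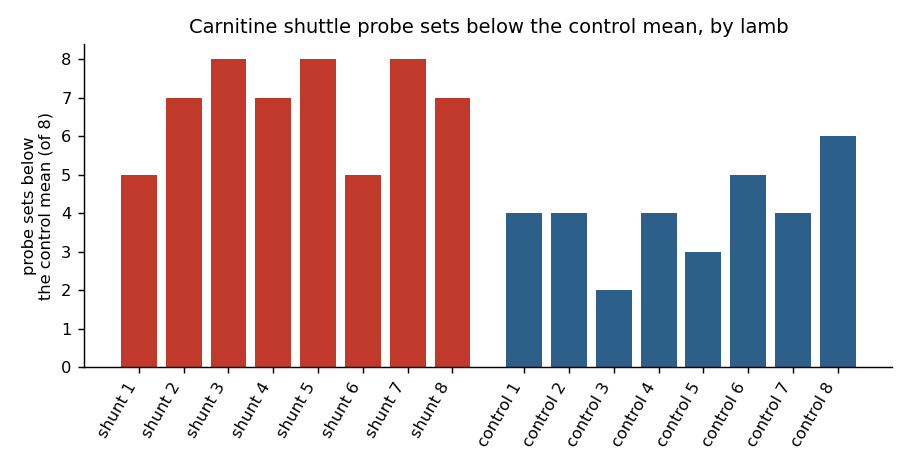
Number of the 8 carnitine shuttle probe sets below the mean of the control lambs (y axis) in each of the 16 lambs (bars, shunt at left and control at right). Shunt lambs have 5 to 8 and control lambs 2 to 6. The control lambs themselves set the mean they are counted against.

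With each group's mean taken off, 15 of the 28 pairs of probe sets had a positive Pearson correlation over the 16 lambs and 13 a negative one, and 0 of 28 passed after Benjamini-Hochberg adjustment (permutation within groups). At an unadjusted p under 0.05, 3 pairs passed by Pearson's r and 2 by Spearman's rho. The r within each group is given as well, and its difference between groups was not tested. The SLC25A20 probe sets had r = 0.69 (permutation p = 0.0189, adjusted p = 0.182), with 0.22 in shunt and 0.84 in control lambs. Their rho was 0.54 (permutation p = 0.0313, adjusted p = 0.438), and r was 0.60 without 2 lambs. The 2 lambs left out were those farthest from the median of the first-named probe set of a pair, here the brighter one. Extreme lambs of the second probe set can therefore remain. The SLC22A5 probe sets had r = -0.30 (permutation p = 0.298, adjusted p = 0.837), with -0.31 in shunt and -0.30 in control lambs. Their rho was -0.33 (permutation p = 0.240, adjusted p = 0.729), and r was -0.21 without 2 lambs. Those readings of one gene thus did not follow each other. CPT1B and CROT had r = 0.56 (permutation p = 0.0195, adjusted p = 0.182), with 0.80 in shunt and 0.26 in control lambs. Their rho was 0.42 (permutation p = 0.104, adjusted p = 0.536), and r was 0.33 without 2 lambs. CROT and the brighter SLC25A20 probe set had r = -0.37 (permutation p = 0.0171, adjusted p = 0.182), with -0.05 in shunt and -0.91 in control lambs. Their rho was -0.43 (permutation p = 0.0807, adjusted p = 0.536), and r was -0.56 without 2 lambs. Control replicate 7, far above the other controls for SLC25A20 at 10.53, was not among the lambs left out. CPT2 and CRAT had r = 0.44 (permutation p = 0.0855, adjusted p = 0.598), with 0.65 in shunt and 0.39 in control lambs. Their rho was 0.59 (permutation p = 0.0202, adjusted p = 0.438), and r was 0.66 without 2 lambs.

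The genes most like each member, by Pearson's r of the same centred values over 16 arrays among 9154 other genes, were as follows. CRAT was closest to NTMT1 (r = 0.89), CACNA1B (0.85) and MFAP3 (0.80). CPT1B was closest to WDR13 (r = 0.92), TLR6 (0.89) and PPP1R32 (0.88), and CPT2 to AHR (r = 0.88), ITM2B (0.86) and PLG (0.85). CROT was closest to KRT19 (r = 0.94), RNF25 (0.90) and CDH1 (0.82). SLC25A20 was closest to NOL7 (r = 0.86), ADISSP (0.85) and DRAP1 (0.84), and SLC22A5 to FDX1 (r = 0.81), TIE1 (0.76) and ZMYM5 (0.73). No gene was named for more than 1 member, and the highest of 9154 values over 16 arrays is large in part because it was picked as the highest.

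The wider pathway was read from 10 lists with 94 measured genes, each by its brightest probe set. Of these 94 genes 0 passed the threshold (limma), against 0.0765% of all 9155 genes. A p under 0.05 without adjustment was found for 13 of them, 10 lower in shunt and 3 higher, and for 14.7% of all genes (7.92% lower and 6.74% higher). The median difference of the 94 was -0.03, and 66.0% of them were below 0, against 55.1% of all genes.

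**Figure D4:**
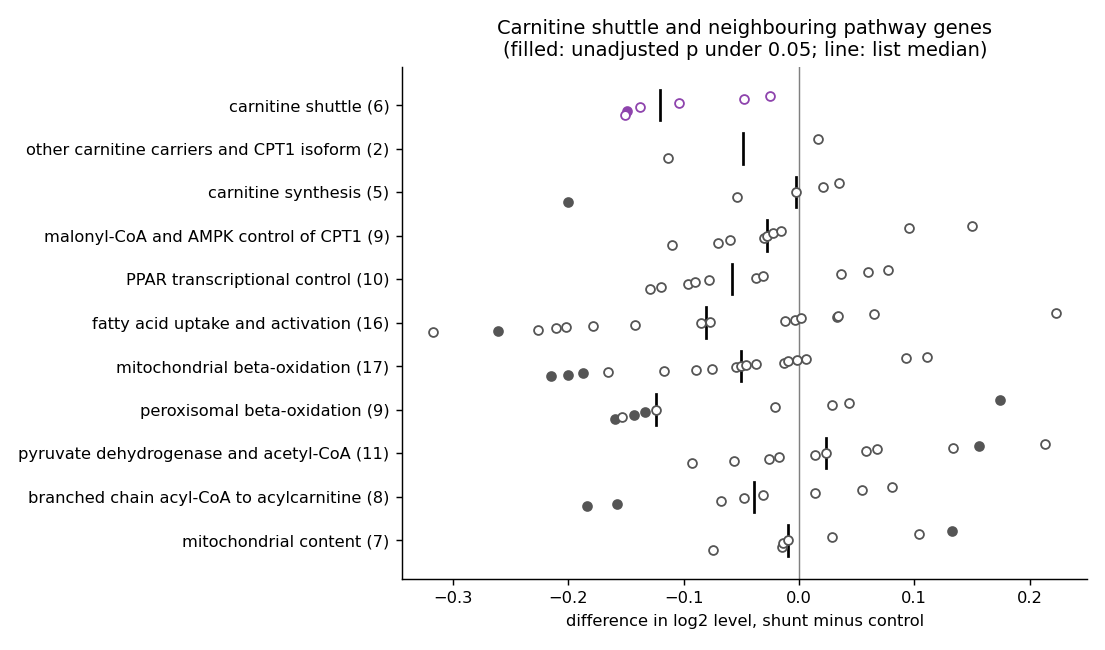
Difference in log2 level, shunt minus control, of every measured gene (points) of the carnitine shuttle and of 10 neighbouring lists, with the list's median (line) and the number of measured genes in brackets. Filled points have an unadjusted p under 0.05, and 0 of the genes shown passed after adjustment. The 6 carnitine shuttle genes lie below 0, with a median of -0.12.

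Mitochondrial beta-oxidation, which receives the acyl groups from CPT2, had 3 of 17 genes lower and 0 higher by an unadjusted p under 0.05, with a median of -0.05. They were ACADVL, the dehydrogenase for very long chains (-0.20 ± 0.05 SE, limma adjusted p = 0.174, with 8 of 8 shunt lambs under the control mean), ACAD9 (-0.19) and HADHA, a subunit of the trifunctional protein (-0.22). A second ACAD9 probe set was at -0.0027. The medium-chain dehydrogenase gene ACADM was at 0.11 ± 0.05 (limma adjusted p = 0.367), so ACADVL and ACADM had opposite signs.

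Peroxisomal beta-oxidation, the pathway that CROT serves, had 3 of 9 genes lower and 1 higher by unadjusted p, with a median of -0.12. The thiolase ACAA1 was at -0.16, the reductase DECR2 at -0.14 and the racemase AMACR at -0.13, while the sterol carrier and thiolase gene SCP2 was at 0.17, with 8 of 8 shunt lambs over the control mean. The limma adjusted p of these 4 ran from 0.338 to 0.363.

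Fatty acid uptake and activation had 1 of 16 genes lower at an unadjusted p under 0.05 and 0 higher, with a median of -0.08. That gene was the transport protein SLC27A1 (-0.26 ± 0.09 SE, limma adjusted p = 0.264), and its dimmer probe set was at -0.09 (adjusted p = 0.636). The fatty acid receptor CD36 was at -0.23, the binding protein FABP3 at -0.32 and the acetyl-CoA synthetase ACSS2 at -0.21, with limma adjusted p from 0.388 to 0.484.

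In carnitine synthesis 1 of 5 genes was lower at an unadjusted p under 0.05, SHMT2 (-0.20 ± 0.07 SE, limma adjusted p = 0.238), a mitochondrial serine hydroxymethyltransferase placed on the list because that enzyme family can split a carnitine precursor. BBOX1, which makes carnitine in the last step, was at -0.05, TMLHE, which starts the route, at 0.03, and SHMT1 at 0.02. Of other carnitine carriers and the CPT1C isoform 2 of 6 genes were measured and 0 had an unadjusted p under 0.05, with SLC25A29 at -0.11 and SLC6A14 at 0.02.

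Malonyl-CoA is the inhibitor of CPT1, and the kinase AMPK lowers it. AMPK and the enzymes that set malonyl-CoA had 0 of 9 genes at an unadjusted p under 0.05 by brightest probe set (limma). The acetyl-CoA carboxylase ACACA was at -0.06 with that probe set. Its dimmer one, at percentile 16.3, was at -0.19 (limma unadjusted p = 0.0245, adjusted p = 0.307). ACACB, the acetyl-CoA carboxylase of the mitochondrial surface, was at -0.11, the malonyl-CoA decarboxylase MLYCD at -0.07, and the AMPK catalytic subunits PRKAA2 and PRKAA1 at 0.15 and 0.10 (PRKAA1 at 0.012 without control replicate 2). PPAR receptors and their partners, which drive transcription of CPT and other fatty acid oxidation genes, also had 0 of 10, with RXRG at -0.13, PPARG at -0.12, HNF4A at -0.10 and PPARA at -0.09. Dimmer probe sets of RXRG and PPARA, not in that count, were at -0.17 and -0.12. Their unadjusted p was 0.0283 and 0.0209 (limma, adjusted p = 0.319 and 0.297).

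Pyruvate dehydrogenase and acetyl-CoA genes, which feed the acetyl pool that CRAT buffers, had 1 of 11 genes higher and 0 lower by unadjusted p. The dehydrogenase subunit DLD was at 0.16, DLAT at 0.13, the kinase PDK4 at 0.21 and PDHA1 at -0.09, and limma adjusted p was 0.357 or more. DLAT and PDHA1 each had another probe set of the opposite sign (-0.07 and 0.11). Branched chain acyl-CoA genes, whose products leave mitochondria as acylcarnitines, had 2 of 8 lower and 0 higher, PCCB (-0.18) and BCKDHA (-0.16), with BCKDHB at -0.07 and MCCC1 at 0.08.

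Genes of mitochondrial content had a median of -0.0099, with 1 of 7 higher at an unadjusted p under 0.05 and 0 lower. The outer membrane channel VDAC1 was at 0.13 ± 0.05 (SE, limma adjusted p = 0.270), with 8 of 8 shunt lambs over the control mean, while VDAC2 was at -0.07, TIMM23 at 0.10 and UQCRC2 at 0.03. A second, dimmer UQCRC2 probe set, not used in these counts, was at -0.20 (limma unadjusted p = 0.0147, adjusted p = 0.271).

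Several defining markers of lung were bright. The surfactant gene SFTPC averaged 13.29 in shunt and 13.44 in control lung and stood at percentile 99.7 of all probe sets, with PECAM1 at percentile 99.1, ACTA2 at 99.3 and AGER at 96.6. Others read lower, with CLIC5 at percentile 61.4, SLC34A2 at 51.6, and the endothelial genes KDR at 29.1 and VWF at 14.1. In whole lung, fewer cells of a type and less RNA per cell cannot be told apart. Markers of several cell types had values on the same side as the carnitine genes, and their part in the differences was not tested. Alveolar type 2 markers had 7 of 7 measured genes below 0 and 3 with an unadjusted p under 0.05 (SFTPB -0.23, SLC34A2 -0.34, SFTPC -0.15). A second, dimmer SFTPB probe set was at -0.05 (limma unadjusted p = 0.448). The summed linear signal of the type 2 markers ran from 21610.5 to 28731.9 in shunt lambs and from 24776.1 to 30111.5 in control lambs. Alveolar type 1 markers had 5 of 6 below 0 and 3 with an unadjusted p under 0.05 (among them AQP5 -0.26 and CLIC5 -0.34, with AGER at -0.15), with sums from 22334.6 to 25896.9 in shunt and from 21163.1 to 26478.3 in control. Airway markers had 5 of 6 below 0 and 2 with an unadjusted p under 0.05 (TFF3 -0.63, BPIFA1 -0.26), with sums from 10208 to 13939.1 in shunt and from 8458.11 to 13393.8 in control. The tubulin gene TUBA1A (0.02), at percentile 99.7, carried most of the airway sum. CAV1 (0.03), at percentile 99.8, was the largest part of the type 1 sum.

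Most markers of the vessel wall had values on the other side. Those below 0 were the endothelial CLDN5 and VWF, both at -0.11, and the smooth muscle CNN1 (-0.18) and LMOD1 (-0.00018). Endothelial markers had 8 of 10 above 0 and 4 with an unadjusted p under 0.05 (PECAM1 0.28 and ENG 0.32 among them), with sums from 17857 to 21216 in shunt and from 15386.6 to 18800.4 in control. The PECAM1 value is that of its brightest probe set (limma adjusted p = 0.0609), and its dimmer probe set passed the threshold, at 0.35 ± 0.06 (SE, limma adjusted p = 0.0384), with 8 of 8 shunt lambs above the control mean. Smooth muscle markers had 6 of 8 above 0 and 4 with an unadjusted p under 0.05 (TPM2 0.37, MYH11 0.33 and ACTA2 0.27 among them), with sums from 21117.3 to 25820.4 in shunt and from 17972.1 to 24719.2 in control. For striated muscle, which uses CPT1B, 10 of 12 markers were measured, 3 of them lower and 1 higher by an unadjusted p under 0.05, with sums from 6677.22 to 10379.6 in shunt and from 5721.97 to 7958.83 in control. CKM (0.52) and MYH7 (0.22) carried most of that signal, at percentiles 97.5 and 96.8, while TNNT2 (-0.20) and MYL2 (-0.19) were dim, at percentiles 11.5 and 13.0. Adipocyte markers had 6 of 8 below 0 and 1 with an unadjusted p under 0.05 (CIDEC -0.24), with ADIPOQ at percentile 38.6 (-0.08) and UCP1 at 12.7 (0.02).

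Among the other marker lists, neutrophils had 3 of 7 genes lower at an unadjusted p under 0.05 and 0 higher (ELANE -0.24, MPO -0.17). T and B cells had 1 of 7 lower (CD79A -0.18, with CD3D at -0.10) and 0 higher. Of these 7 genes 4 were below 0 and 3 above, and the brightest, CD3E at percentile 78.9, was at 0.00028. Fibroblasts had 1 of 8 higher (LUM 0.60, with COL1A1 at 0.20). Of these 8 genes 4 were below 0, with DCN at -0.29, and the list's median was -0.0045. Macrophages had 1 of 6 higher (MSR1 0.50, against -0.14 and 0.11 at its dimmer probe sets) and 4 of 6 below 0 (C1QB at -0.21). Erythroid cells had 0 of 6 at that cut (HBB 0.68, against -0.31, -0.06 and 0.10 at its dimmer probe sets, and AHSP -0.18). Hepatocytes had 1 higher and 1 lower of 6 (APOA1 0.51, CYP2E1 -0.22, with ALB at 0.0050). At the brightest probe set of each gene, 0 markers of the 13 lists passed after adjustment (limma).

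Array medians were 7.131 ± 0.009 in shunt and 7.154 ± 0.016 in control lambs (SD, n = 8 each, exact two-sided permutation p = 0.000311). The probe sets for spiked poly-A RNA averaged 4.23 ± 0.01 in shunt and 4.31 ± 0.11 in control lambs (SD, n = 8 each, exact two-sided permutation p = 0.00124), with control replicate 2 the highest at 4.57. These poly-A levels were near the bottom of the range, as an HBB probe set averaging 4.23 stood at percentile 3.86. Whether they read spiked RNA or background was not tested. The part of these array measures in the carnitine gene differences was not tested. Pairs of arrays correlated at 0.980 to 0.995 over all probe sets. With each array centred on its median, the median difference of the 8 carnitine shuttle probe sets was -0.09 and that of all probe sets was 0.0095.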

How the data were processed

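Arrays with bovine probe sets were hybridized with cRNA of sheep lung, so base differences between the species can dim a probe set, and signal over background is unknown. The deposited values are log2 levels from RMA, per the submitters' processing notes, with 1 value for each probe set on each array. The RMA version was not given in the sources used here. From the 24128 probe sets, 112 control probe sets were left out. Genes were taken from the platform annotation, which gave 1 symbol to 13292 probe sets, several to 86 and none to 10638. Only probe sets with 1 symbol were named. All 6 measured member symbols were also in a table of sheep genes. For other genes, and for likeness, the probe set with the highest mean represented each of 9155 genes.

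Shunt was compared with control by limma 3.58.1 in R 4.3.3 (lmFit and eBayes, two-sided, no covariate, Benjamini-Hochberg over 24016 probe sets, threshold 0.05). Each difference is the mean log2 level of shunt less that of control, and its SE is that of the limma fit. The number of arrays limits the precision. Member differences were also tested by exact permutation. Correlations used 100000 permutations within groups (scipy 1.17.1). The fit was tested on simulated data. No hybridization batch was known.

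The members and lists were chosen with earlier results of these data known. Named by rule were every member probe set, up to 4 genes of smallest p from each of 10 pathway lists, up to 2 from each of 13 cell type lists with fixed defining markers, any list gene past the threshold, and the 3 genes most like each member. Outside that rule, ACACA, KDR, VWF, CLDN5, CNN1, LMOD1, DCN, TUBA1A, CAV1 and CD3E were added to show limits of their lists. They are not among the 72 list genes followed in the closing sections. Alternatives were a replicate block, a filter below the 25th percentile, quantile normalization again, cyclic loess, median centring, array weights, a trended and robust prior, XIST as a covariate for sex, 3 ways to get 1 value a gene, a threshold of 0.10, and each array left out. Leaving out both control replicate 2 and shunt replicate 1 was an alternative chosen after seeing the data. Figures were made in Python 3.11.15 (matplotlib 3.10.9).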

Additional observations from a re-analysis of the deposited data

Results flagged for a closer look

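In groups of 8, a lamb was picked out when its distance to the next lamb was a large share of the group's range (the ratio given below). This was so for 10 of 160 sets of values (8 member probe sets and 72 genes named from the lists by rule, in both groups), where chance gives about 8.

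Among the members it was the brighter SLC25A20 probe set in control replicate 7, at 10.53 against 10.14 in the next control (ratio 0.528).

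Control replicate 2 was apart in 6 of the other sets. It was the highest control for SLC25A29 (7.14, ratio 0.599), HNF4A (7.03, ratio 0.611), LEP (6.42, ratio 0.638) and ADIPOQ (7.24, ratio 0.684), and the lowest for PRKAA1 (6.46, ratio 0.536) and C1QB (8.78, ratio 0.566). It also had the lowest array weight, 0.232.

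Shunt replicate 1 had the highest ACSS2 of the shunt lambs (10.26, ratio 0.624). Shunt replicate 2 had the highest VDAC1 (12.3, ratio 0.597) and MSR1 (9.08, ratio 0.576).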

How the results depend on the processing

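In every alternative 0 of the carnitine shuttle probe sets passed the threshold, at 0.10 as well. The lowest adjusted p of any was 0.144, for CRAT without control replicate 8. The CRAT difference ran from -0.16 to -0.13 over the 16 fits without 1 array, and its unadjusted p was under 0.05 in 16 of 16 of them and in 12 of 12 other fits. That of the dimmer SLC25A20 probe set was under 0.05 in 5 of 16 and in 1 of 9 other fits. After quantile normalization again and cyclic loess the brighter SLC25A20 probe set was under 0.05 instead (limma unadjusted p = 0.0322 and 0.0390). With array weights or XIST it was CPT1B (limma unadjusted p = 0.0219 and 0.0474). The median of the members ran from -0.13 to -0.08 without 1 array. Members with an unadjusted p under 0.05 were 2, against 1 with median centring, the trended and robust prior or any of the 3 rules for 1 value a gene, and 1 to 3 without 1 array (3 when shunt replicate 1 or one of control replicates 1 and 2 was left out, and 1 when one of control replicates 3 to 7 or of shunt replicates 2, 5, 7 and 8 was). The brighter SLC22A5 probe set ran from -0.0670 to 0.0126. CPT2 ran from -0.0770 to -0.00780 without 1 array, and was -0.0260 after quantile normalization again, -0.0183 after cyclic loess, -0.0243 with median centring and -0.00408 with array weights. Replicate numbers are shared by both groups. The labels do not say whether they pair the lambs, and a weak pairing could escape the checks that follow. The correlation of deviations ran from -0.26 to 0.22, over 0.1 in 2 of 8 pairs, and 0 of 16 lambs correlated best with their own number. With the replicate block 1 member had an unadjusted p under 0.05 and 0 probe sets of all passed.

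Of all probe sets 17 passed, against 10 after quantile normalization again, 26 with median centring, 45 with array weights, 8, 10 and 9 with the brightest, mean and most variable probe set a gene (fewer tests), 39 without both control replicate 2 and shunt replicate 1, 55 at 0.10, and 6 to 75 without 1 array. Without 1 array the count was 75 without shunt replicate 1, 33 without control replicate 6 or 8, 11 without shunt replicate 6, 10 without control replicate 7, 9 without control replicate 3, 7 without control replicate 1 or shunt replicate 2, and 6 without control replicate 5 or shunt replicate 3, 5 or 8. The cause was not tested.

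Among the marker genes, PECAM1 passed with median centring (0.301, adjusted p = 0.0423), the trended and robust prior (0.278, adjusted p = 0.0416), the mean (0.314, adjusted p = 0.0214) and the most variable probe set a gene (0.351, adjusted p = 0.0353), and without shunt replicate 1 (0.293, adjusted p = 0.0421), where AQP5 passed too (-0.298, adjusted p = 0.0421). Some genes changed sign. With the most variable probe set DLAT was -0.0742, PDHA1 0.108, HBB -0.312 and UQCRC2 -0.202. UQCRC2 was also -0.0867 with the mean of probe sets, -0.00854 after quantile normalization and -8.90e-05 after cyclic loess. ALB was -0.0432 and -0.0307 under those normalizations, -0.0131 with array weights and -0.0443 with the mean. Without both arrays SLC6A14 was -0.00578, TMLHE -0.0640, ADIPOQ 0.00824, UCP1 -0.0136 and ALB -0.0258. Without 1 array the ranges were -0.000998 to 0.0381 for SLC6A14, -0.00295 to 0.0600 for SHMT1, -0.0177 to 0.107 for TMLHE, -0.116 to 0.00949 for ADIPOQ, -0.00775 to 0.0556 for UCP1 and -0.0325 to 0.0435 for ALB.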

Other observations

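CKM and MYH7, genes of striated muscle, were bright in these lungs. CKM averaged 12.01 ± 0.32 in shunt and 11.49 ± 0.42 in control lung, and MYH7 11.59 ± 0.38 in shunt and 11.37 ± 0.35 in control lung (SD, n = 8 each). A second CKM probe set differed by -0.02, and other MYH7 probe sets by -0.02 and -0.12. ALB, a liver gene with 9 probe sets here, averaged 11.15 ± 0.07 in shunt and 11.15 ± 0.17 in control lung with its brightest probe set. Whether these probe sets bind other sheep transcripts was not tested.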
